A study of Mus musculus with 8 samples.

Results

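Mitochondria divide and fuse continuously, and damaged ones are removed by a selective form of autophagy called mitophagy. Division is carried out by the dynamin-related GTPase DRP1, encoded by *Dnm1l*, which is drawn to the outer membrane by adaptors such as MFF, with FIS1 also sitting in that membrane. Fusion needs the mitofusins MFN1 and MFN2 in the outer membrane and OPA1 in the inner membrane, and the protease OMA1 cleaves OPA1 when the membrane potential falls. In mitophagy the kinase PINK1 accumulates on depolarised mitochondria and recruits the ubiquitin ligase PARKIN, whereas FUNDC1 in the outer membrane and PHB2 in the inner membrane bind the autophagosome protein LC3 directly.

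The transcripts of these 10 genes were followed in pancreatic islets that overexpress *Ucp2*, an uncoupling protein of the inner mitochondrial membrane, in β-cells. Members were all probes whose gene symbol in the deposited table was *Dnm1l*, *Fis1*, *Mff*, *Opa1*, *Mfn1*, *Mfn2*, *Oma1*, *Pink1*, *Fundc1* or *Phb2*. They numbered 24 of the 56605 probes on the array, and 10 of the 26909 gene symbols. The rule reads gene symbols and no measured values, although the 10 genes were listed with earlier results of these data known.

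Islets came from young adult male βUCP2Tg mice, which carry mouse *Ucp2* cDNA behind a rat *Ins2* promoter and a rabbit β-globin intron on a C57BL6/J background, and from WT mice. The promoter limits the transgene to β-cells, whereas an islet also holds α-, δ- and PP-cells, so each value is a mean over cell types. Both groups were kept for 8 h in RPMI medium with 200 mg/dL glucose, and no other treatment was given to either. RNA of 4 βUCP2Tg and 4 WT samples was labelled with Cy3 and hybridised to Agilent mouse arrays, each sample on its own array. The labels do not say how many mice each sample pooled, so that replicates are counted as samples and p-values measure the spread between samples. In bulk islets, fewer cells of a type and less RNA per cell cannot be told apart. The arrays shared a single slide with each row holding a single genotype, so that position and genotype cannot be told apart.

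All levels below are log2 signals of a probe relative to the 75th percentile of its array, so that a value of 0 lies at that percentile. They can be compared between arrays for the same probe but not between probes. Differences between groups come from limma, fitted to 35363 probes that passed the background limit on 4 or more of the 8 arrays. To be called, a probe had to reach 1.5-fold with a Benjamini-Hochberg adjusted p under 0.05.

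The labels and the tissue were checked first. The *Ucp2* probe A_51_P297105 read 6.99 to 7.71 on the βUCP2Tg arrays and 0.92 to 1.46 on the WT arrays, a log2 fold change of 6.24 (limma, adjusted p = 9.32e-06). A second *Ucp2* probe, A_52_P90265, read 0.78 to 0.90 in βUCP2Tg and 0.22 to 0.73 in WT, a log2 fold change of 0.44 that was not called (adjusted p = 0.0987), and whether it lies in the cDNA of the transgene was not analysed here. All 10 β-cell markers were above background on all 8 arrays, and none was called. No gene of the α-, δ-, PP-, duct, endothelium, macrophage or fibroblast lists was called. With 0.410% of all tested probes called, this says little about the mix of cell types. Brightest probes ran from 0.04 to 0.79 in log2 fold change in the α list and from -0.04 to 0.43 in the δ list. They ran from -1.63 to 0.70 for duct and -0.36 to 1.01 for endothelium. For macrophages they ran from -0.88 to 0.66, for fibroblasts from -0.08 to 0.59, and the PP gene had 0.27. Of 14 acinar markers, 13 were tested and all 13 had a log2 fold change below 0, with a median of -1.74. The mean acinar level was -1.12, 0.48, -0.61 and 3.04 in βUCP2Tg replicates 1 to 4. In WT replicates 1 to 4 it was 2.22, 3.23, 3.68 and -0.62. The defining acinar factor *Ptf1a* was not above background on any array. A list of 14 hypoxia response genes also leaned down in βUCP2Tg, with 12 of 14 below 0 and a median of -1.22. In that list 2 arrays departed from their group. βUCP2Tg replicate 4 had a mean of 2.04 where the other βUCP2Tg arrays had 0.77 to 0.78, and WT replicate 1 had 1.52 where the other WT arrays had 2.46 to 2.49. Results are therefore also given without these 2 arrays, which also leaves out the βUCP2Tg array of highest acinar level.

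No probe of the 10 genes was called in either direction (0 of 22 tested), where 0.410% of all tested probes were called, 0.206% higher and 0.204% lower in βUCP2Tg. None had an adjusted p under 0.05. At an unadjusted p under 0.05 there were 2 of the 22 probes, *Pink1* A_55_P2935905 higher and *Phb2* A_55_P2737054 lower in βUCP2Tg, against 25.2% of all probes. The log2 fold change was above 0 for 16 of the 22 probes and below 0 for 6, with a median of 0.09, where 46.8% of all probes were above 0 and their median was -0.02. For 16 of the 22 probes the 95% confidence interval held no change as large as 1.5-fold in either direction. With the brightest probe standing for each gene, this was so for 8 of the 10 genes, all except *Oma1* and *Pink1*.

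**Figure D1:**
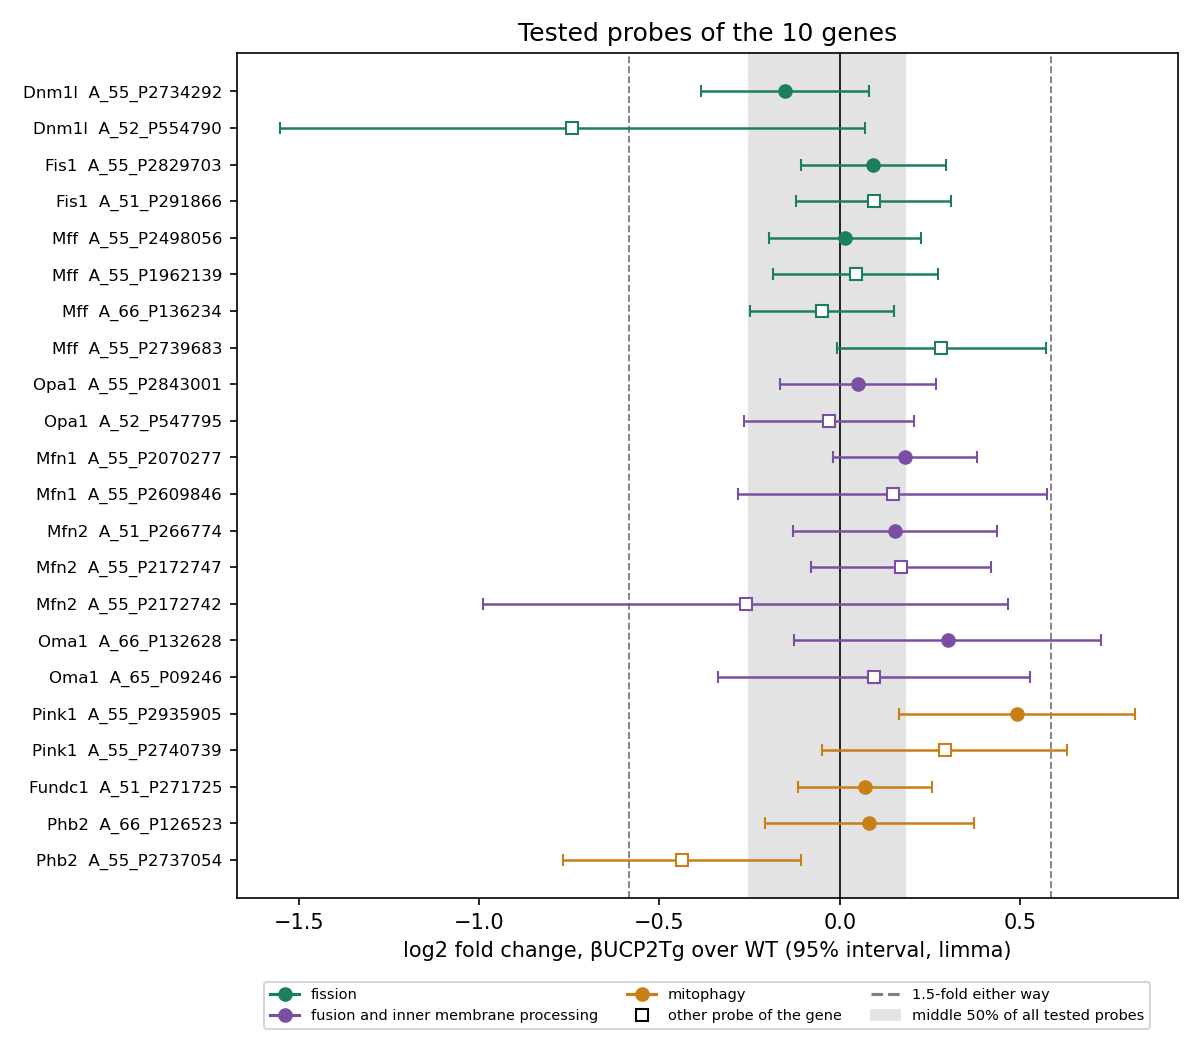
Log2 fold change (x axis, βUCP2Tg over WT) of the 22 tested probes of the 10 genes, with 95% confidence intervals from limma. Filled circles are the brightest probe of each gene, open squares its other probes, colours the role, dashed lines 1.5-fold either way, and the grey band the middle 50% of all tested probes (-0.25 to 0.18). The intervals of *Pink1* A_55_P2935905 and *Phb2* A_55_P2737054 are the only ones that leave out 0.

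Not every probe could be read. The *Mff* probe A_52_P639540 and the *Opa1* probe A_52_P153645 were above background on none of the arrays and were not tested. The *Dnm1l* probe A_52_P554790 was above background on 2 βUCP2Tg and 3 WT arrays. The remaining 21 probes were above background on all 8 arrays, so that every gene had at least 1 well-measured probe. Of the 24 accessions behind the probes, 16 were found in RefSeq (assembly GRCm38.p6), all 16 under the symbol that the deposited table gave.

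Probes of the same gene read different stretches of its transcripts. Pairs of *Pink1* and *Mff* are shown because their difference separated the groups, the pair of *Phb2* because 1 of its probes had an unadjusted p under 0.05 and pointed the other way, and the pair of *Fis1* because its estimates differed least. The sequences are those of the deposited table, 5′ to 3′. Capitals mark a stop triplet (TAA, TAG or TGA) in any frame, except in the second *Fis1* sequence, where they mark AATAAA, the hexamer known as a polyadenylation signal. Where the probes lie in the transcripts was not analysed here, and some are given as a stretch of 30 bases.
*Pink1* A_55_P2740739, bases 1 to 60: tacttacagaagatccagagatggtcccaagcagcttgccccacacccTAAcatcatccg
*Pink1* A_55_P2935905, bases 6 to 35: caTAGtcaaattTAAcacttcctgggcTAA
*Phb2* A_66_P126523, bases 1 to 60: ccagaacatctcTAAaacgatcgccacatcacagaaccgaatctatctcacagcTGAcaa
*Phb2* A_55_P2737054, bases 22 to 51: ttggtggaatccactttggaggaggagTAG
*Mff* A_55_P2739683, bases 1 to 60: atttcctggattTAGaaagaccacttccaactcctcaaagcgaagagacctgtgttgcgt
*Mff* A_66_P136234, bases 1 to 30: cgcTAGaggTAAcctcagcattcacatata
*Fis1* A_51_P291866, bases 1 to 60: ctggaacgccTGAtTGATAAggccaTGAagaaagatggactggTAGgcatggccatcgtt
*Fis1* A_55_P2829703, bases 31 to 60: gcaatgagtgtaAATAAAattgggccgtgg

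Over their 60 bases, 16 of the 24 probes left at least 1 of the 3 forward reading frames open and 8 left none. *Pink1* A_55_P2740739 and both *Phb2* probes left 2 frames open, whereas *Pink1* A_55_P2935905 had a stop triplet in all 3 frames. No 2 probes of a gene shared more than 8 bases in a row. The probes held between 28.3% and 55.0% G and C.

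Among the genes of division, *Dnm1l* gave 2.40, 2.45, 2.52 and 2.50 in βUCP2Tg replicates 1 to 4 and 2.85, 2.59, 2.48 and 2.56 in WT replicates 1 to 4 (probe A_55_P2734292). The groups overlapped, and WT replicate 1 was the highest array. Its log2 fold change was -0.15 ± 0.10 (SE), with a 95% confidence interval of -0.38 to 0.08 and an adjusted p of 0.377 (limma). Its dim probe A_52_P554790 had a larger difference of -0.74 with a wide interval of -1.55 to 0.07 (adjusted p = 0.230), on arrays of which 3 were not above background.

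*Fis1* was measured by 2 probes that gave the same value. The probe A_55_P2829703 ranged from 4.67 to 4.86 in βUCP2Tg and from 4.56 to 4.76 in WT, and the log2 fold change was 0.09 (95% interval -0.11 to 0.29, adjusted p = 0.531). The probe A_51_P291866 also gave 0.09 (adjusted p = 0.556). For *Mff*, the adaptor that recruits DRP1, 4 probes were tested. The brightest, A_55_P2498056, ranged from 4.27 to 4.50 in βUCP2Tg and from 4.30 to 4.49 in WT, with a log2 fold change of 0.01 (-0.20 to 0.23, adjusted p = 0.938). A_55_P1962139 gave 0.04 and A_66_P136234 gave -0.05. The probe A_55_P2739683 read 0.99, 1.02, 0.85 and 0.95 in βUCP2Tg against 0.55, 0.42, 0.79 and 0.93 in WT. There 3 of 4 βUCP2Tg arrays were above every WT array, and the log2 fold change was 0.28 (-0.01 to 0.57, adjusted p = 0.208).

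Among the genes of fusion, the brightest probe of all 4 had a log2 fold change above 0, between 0.05 and 0.30, and none was called. *Opa1* (A_55_P2843001) ranged from 2.24 to 2.33 in βUCP2Tg and from 2.12 to 2.41 in WT, so that all βUCP2Tg arrays lay inside the WT range, and its log2 fold change was 0.05 (-0.17 to 0.27, adjusted p = 0.773). The other tested *Opa1* probe A_52_P547795 gave -0.03 (adjusted p = 0.875).

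*Mfn1* (A_55_P2070277) read 1.02, 1.04, 1.02 and 0.92 in βUCP2Tg and 0.92, 0.70, 0.76 and 0.88 in WT. Only βUCP2Tg replicate 4 and WT replicate 1 overlapped, and in the deposited normalized values, with outlier spots kept, with quantile normalization and with the 75th percentile over probes above background on all arrays the groups did not overlap. A log2 fold change of 0.18 ± 0.09 (SE; 95% interval -0.02 to 0.38, adjusted p = 0.233) resulted, and the dimmer *Mfn1* probe A_55_P2609846 gave 0.15 (-0.28 to 0.57). *Mfn2* (A_51_P266774) ranged from 0.78 to 1.04 in βUCP2Tg and from 0.61 to 1.08 in WT, with a log2 fold change of 0.15 (-0.13 to 0.44, adjusted p = 0.464). A second *Mfn2* probe, A_55_P2172747, gave 0.17, and the dim probe A_55_P2172742 gave -0.26 with an interval of -0.99 to 0.47. *Oma1*, the protease that processes OPA1, read -1.25, -1.10, -1.09 and -1.39 in βUCP2Tg and -1.08, -1.91, -1.71 and -1.31 in WT (A_66_P132628). WT replicate 1 was above all βUCP2Tg arrays and the other WT arrays spread from -1.91 to -1.31. The difference of 0.30 had an interval of -0.13 to 0.73 that takes in a 1.5-fold change (adjusted p = 0.342), and the other *Oma1* probe gave 0.09.

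**Figure D2:**
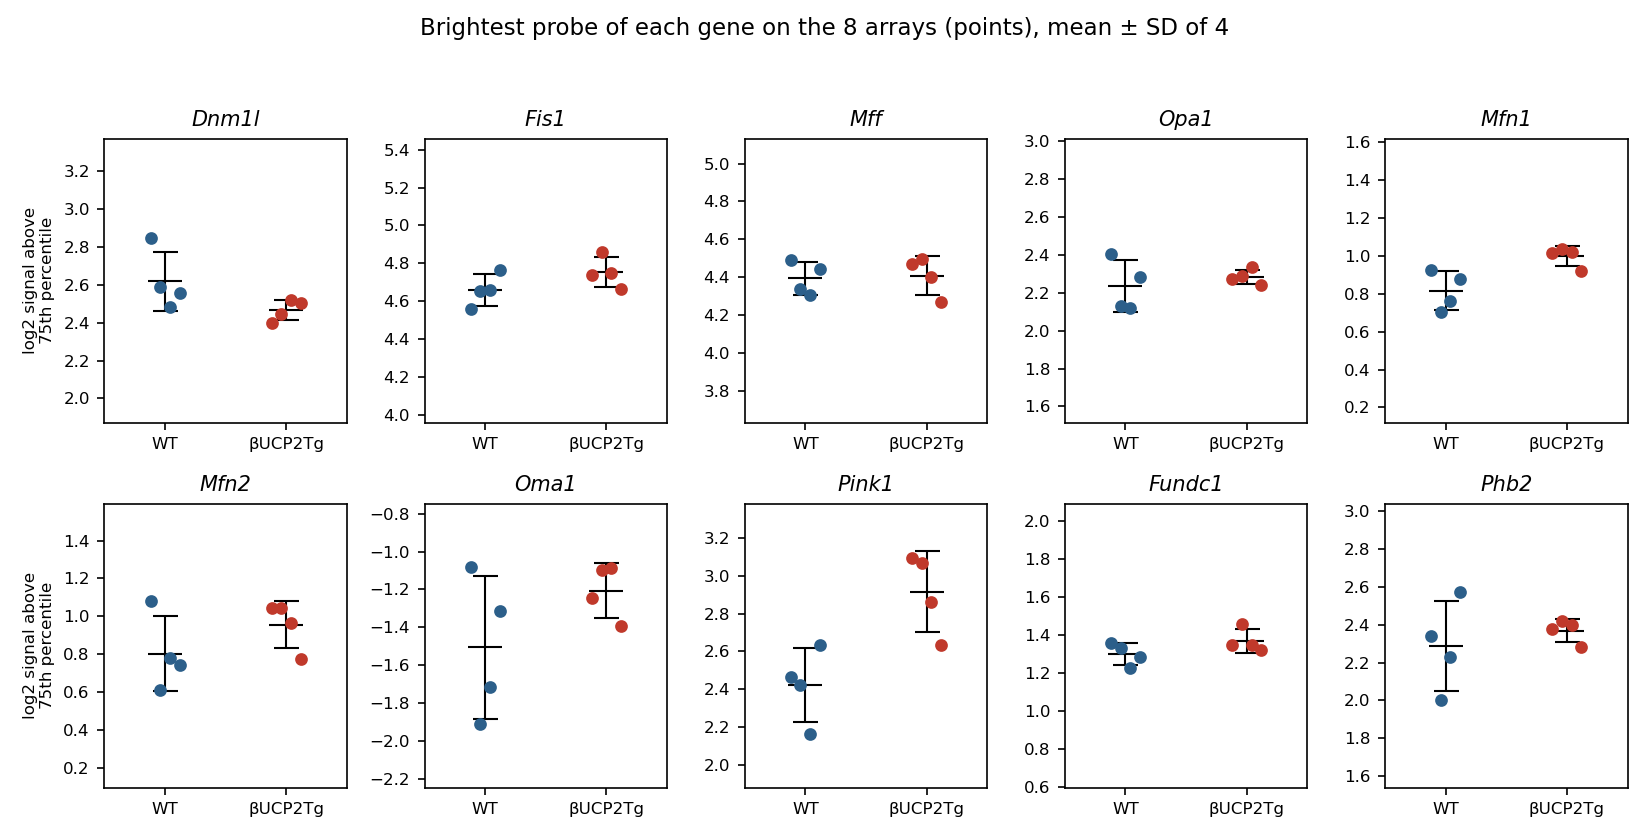
Log2 signal relative to the 75th percentile of the array (y axis, the same span in each panel) for the brightest probe of each gene on the 4 WT and 4 βUCP2Tg arrays, with mean ± SD. The groups overlap in all panels except *Pink1*, where the lowest βUCP2Tg and the highest WT array both lie at 2.64.

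*Pink1* had the largest log2 fold change among the brightest probes. Its probe A_55_P2935905 read 3.09, 3.07, 2.86 and 2.64 in βUCP2Tg and 2.47, 2.42, 2.17 and 2.64 in WT. All βUCP2Tg arrays were above all WT arrays, but the gap between βUCP2Tg replicate 4 and WT replicate 4 was only 0.00043. It was the only member probe whose groups did not overlap (1 of 22 higher and 0 lower, against 5.25% and 7.17% of all probes). The log2 fold change was 0.49 ± 0.14 (SE; 95% interval 0.16 to 0.82), or 1.41-fold, with an unadjusted p of 0.00823 and an adjusted p of 0.105 (limma). The exact two-sided permutation test gave p = 0.0286, the smallest that 4 against 4 allows. Among all tested probes, 19.4% had a larger absolute difference. In the deposited normalized values, which shift each array by its own constant, the groups of this probe overlapped by 0.013, and *Mfn1* A_55_P2070277 was the only member probe whose groups did not overlap.

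The other *Pink1* probe A_55_P2740739 ranked the arrays of each group in the same order. It read -0.01, -0.15, -0.25 and -0.54 in βUCP2Tg and -0.37, -0.61, -0.78 and -0.35 in WT. Here βUCP2Tg replicate 4 lay below 2 of the WT arrays, and the log2 fold change was 0.29 (-0.05 to 0.63, adjusted p = 0.254).

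*Fundc1*, a receptor of mitophagy that is independent of PARKIN, was measured by 1 probe. It ranged from 1.32 to 1.46 in βUCP2Tg and from 1.23 to 1.36 in WT, with a log2 fold change of 0.07 and a narrow interval of -0.12 to 0.26 (adjusted p = 0.618).

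The probes of *Phb2* pointed in opposite directions. The brightest probe, A_66_P126523, read 2.37, 2.42, 2.40 and 2.28 in βUCP2Tg and 2.34, 2.0, 2.23 and 2.57 in WT, all βUCP2Tg arrays inside the WT range, with a log2 fold change of 0.08 (-0.21 to 0.37, adjusted p = 0.718). The probe A_55_P2737054 read 0.68, 0.51, 0.44 and 0.95 in βUCP2Tg and 1.31, 1.02, 0.88 and 1.11 in WT. The array names an Ensembl transcript for it and a RefSeq transcript for the brightest probe, and whether these differ was not analysed. There 3 of 4 βUCP2Tg arrays were below every WT array, and βUCP2Tg replicate 4 was above WT replicate 3. The log2 fold change was -0.44 ± 0.14 (SE; 95% interval -0.77 to -0.11), with an unadjusted p of 0.0155 and an adjusted p of 0.125.

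**Figure D3:**
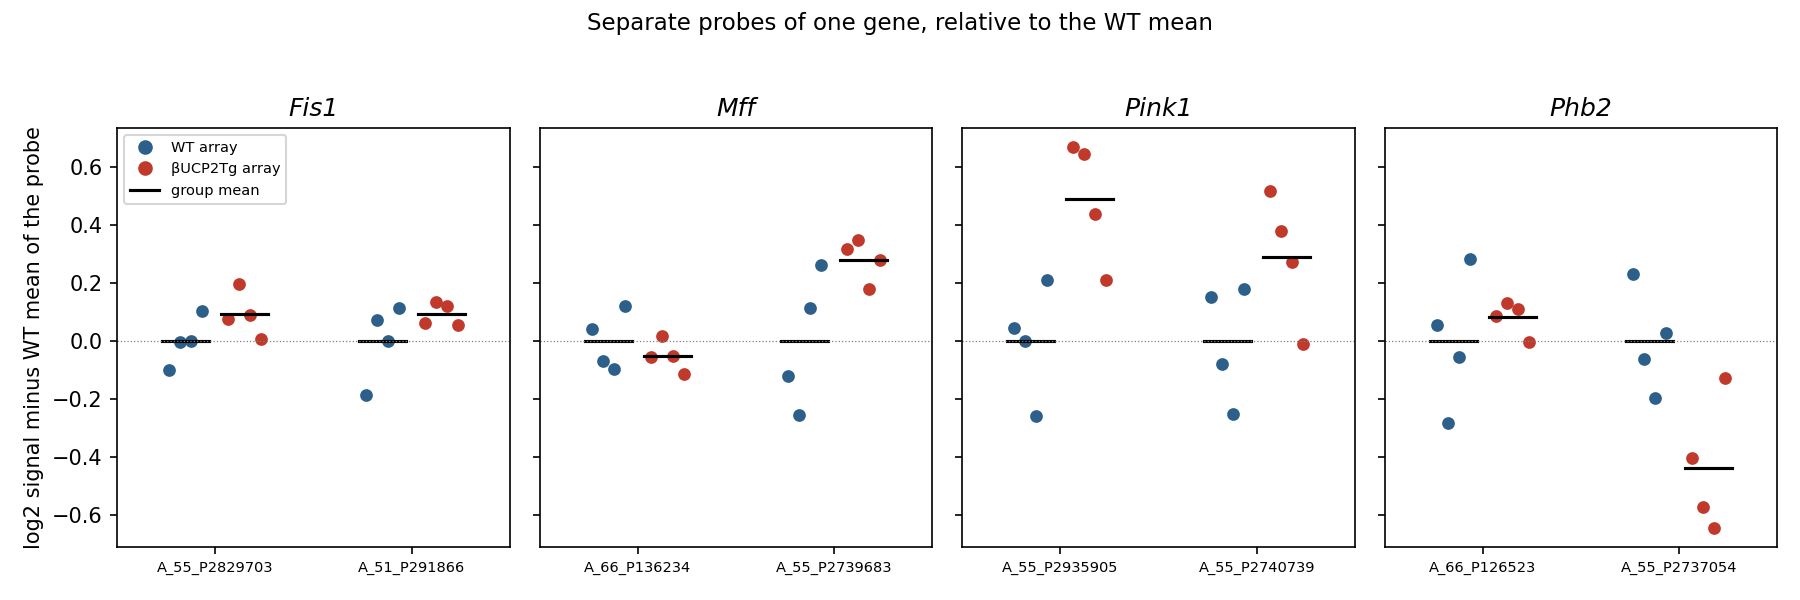
Log2 signal of each array minus the WT mean of the same probe (y axis) for pairs of probes of *Fis1*, *Mff*, *Pink1* and *Phb2*, with group means as bars. Both *Fis1* probes lie 0.09 above WT on average, whereas the *Phb2* probes lie at 0.08 and -0.44.

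The difference between probes of the same gene was compared on each array, which removes any scaling of the array, in all 16 pairs of tested probes of a gene. The groups did not overlap in 2 pairs. In *Pink1*, A_55_P2935905 minus A_55_P2740739 was 3.1 to 3.22 in βUCP2Tg and 2.84 to 3.03 in WT, so that the former probe gained 0.20 more. In *Mff*, A_66_P136234 minus A_55_P2739683 was 1.27 to 1.43 in βUCP2Tg and 1.45 to 1.85 in WT, a change of -0.33. For each of these pairs the exact permutation p was 0.0286 and the Benjamini-Hochberg adjusted p over the 16 pairs was 0.229. In *Phb2* the change was 0.52, the groups overlapped between 1.33 and 1.46, and the exact permutation p was 0.0857 (adjusted 0.366). The *Fis1* pair changed by less than 0.01 (exact permutation p = 0.971). With 16 pairs and 0.0286 as the smallest p, 2 pairs could not have passed the adjustment whatever their size. The comparison of probe pairs was chosen after values had been seen.

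The weight of single arrays on these differences was then measured. In the 8 fits that leave out 1 array each, no member probe was called. Over all probes the share called was 10.8% without WT replicate 1, 4.18% without βUCP2Tg replicate 4 and 0.0228% to 0.0716% in the other 6 fits, where a count of 0 among 22 probes says little. The log2 fold change of *Pink1* A_55_P2935905 ranged from 0.41 to 0.58 and its adjusted p from 0.0534 to 0.276. *Phb2* A_55_P2737054 ranged from -0.54 to -0.36 (adjusted p 0.0571 to 0.303). *Dnm1l* A_55_P2734292 stayed below 0, between -0.20 and -0.08. In their brightest probes, *Mfn1* (0.14 to 0.22), *Fis1* (0.06 to 0.13) and *Fundc1* (0.04 to 0.09) stayed above 0. So did *Oma1*, from 0.16 without WT replicate 2 to 0.44 without WT replicate 1, and *Mfn2*, from 0.09 to 0.24 without the same arrays. *Opa1* ran from 0.01 without WT replicate 3 to 0.11 without WT replicate 1. *Mff* and *Phb2* took both signs.

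Without βUCP2Tg replicate 4 and WT replicate 1 together, *Pink1* A_55_P2935905 was called higher in βUCP2Tg, with a log2 fold change of 0.60 (95% interval 0.25 to 0.95, adjusted p = 0.0312). It was the only 1 of 21 tested member probes called, where in the same fit 6.73% of all probes were called higher and 9.25% lower. *Phb2* A_55_P2737054 then had an adjusted p of 0.0302 at -0.46, short of 1.5-fold. The difference grew to 0.50 for *Oma1* (adjusted p = 0.0706) and to 0.30 for *Mfn2* A_51_P266774 (adjusted p = 0.0589). Groups of 3 against 3 arrays did not overlap for 6 member probes higher and 1 lower, against 21.5% and 23.6% of all probes. With all 8 arrays none of these probes except *Pink1* A_55_P2935905 had groups apart. The 2 arrays were picked from these data for lying toward the other group in the hypoxia list, so that this fit is a description and its p-values support nothing on their own. The part of the hypoxia list in these differences was not tested.

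**Figure D4:**
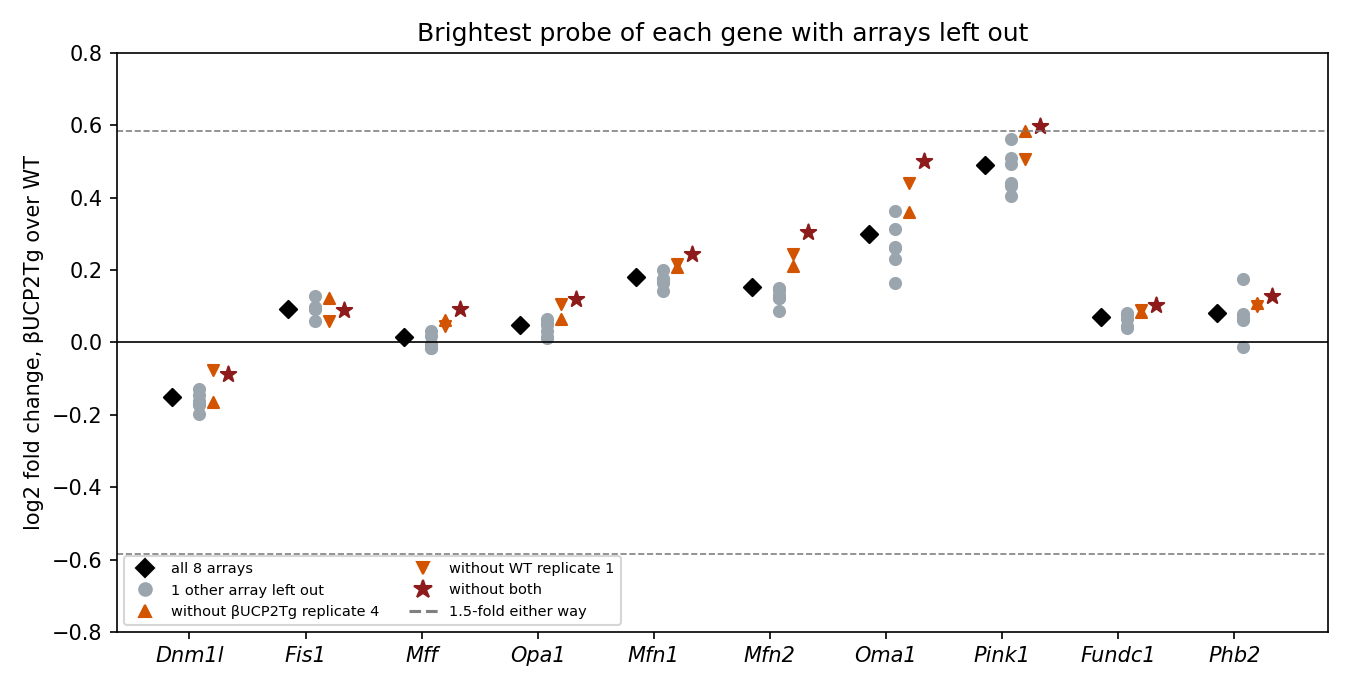
Log2 fold change (y axis, βUCP2Tg over WT) of the brightest probe of each gene with all 8 arrays (diamonds), with 1 array left out (circles and triangles) and without βUCP2Tg replicate 4 and WT replicate 1 (stars). *Oma1* moves most, from 0.30 to 0.50 without both arrays, and *Pink1* crosses the dashed line of 1.5-fold at 0.60.

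Likeness between the genes was described over the arrays. After the group means were subtracted, the Pearson correlation over the 8 arrays between brightest probes was above 0 for 42 of 45 pairs of genes, with a median of 0.51. *Mfn1* and *Oma1* were the most alike (r = 0.97), and *Dnm1l* and *Fis1* the least (r = -0.57). The points share the arrays and their scaling, including the 2 arrays that departed from their group. The same was not computed over all probes, and whether such values are particular to the 10 genes is unknown.

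The partner genes of these pathways were taken from 6 lists of 73 genes, all of which were tested. None of the 73 was called in either direction, which is no result about these genes where 0.410% of all probes were called. An unadjusted p under 0.05 was found in 14 (19.2%, against 25.2% of all probes), the groups did not overlap for 4 higher and 4 lower (11%, against 12.4%), and the median log2 fold change was 0.00. Among 13 fission partners the median was 0.09. The largest differences were in *Mtfp1*, an inner membrane protein that promotes fission (0.74, 95% interval -0.09 to 1.57, adjusted p = 0.242), and in *Spire1*, an actin nucleator (-0.47, adjusted p = 0.151). *Mtfp1* split the WT arrays themselves, at 2.12, 0.33, 0.79 and 1.5. Among 18 fusion and cristae partners the median was 0.07, with *Apool*, a cristae junction protein, at 0.60 (adjusted p = 0.176) and *Pld6* at 0.29 (adjusted p = 0.436).

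In the ubiquitin arm of mitophagy the median of 16 genes was -0.04. *Park2*, which encodes PARKIN, ranged from 0.31 to 0.49 in βUCP2Tg and from 0.29 to 0.51 in WT. Its log2 fold change of -0.01 had an interval of -0.21 to 0.20 (adjusted p = 0.979), which leaves out a 1.5-fold change in either direction. This holds for the brightest of 4 tested *Park2* probes, and the values of the others are not given here. The autophagy receptor *Optn* had -0.45 (adjusted p = 0.327), and *Calcoco2*, above background on only 2 arrays of each group, had 0.32 (adjusted p = 0.610).

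Mitophagy receptors other than *Fundc1* and *Phb2* held the largest difference of the 6 lists. *Bnip3*, an outer membrane receptor that hypoxia is known to induce, read 4.09, 4.08, 4.05 and 5.83 in βUCP2Tg and 5.18, 6.30, 6.26 and 6.45 in WT. The arrays that crossed were βUCP2Tg replicate 4 and WT replicate 1, as in the hypoxia list. *Bnip3* was merely placed in another list, so that this likeness is no separate observation, and its cause was not tested. The log2 fold change was -1.54 (95% interval -2.57 to -0.50, unadjusted p = 0.00902, adjusted p = 0.108). Its relative *Bnip3l* read 2.51, 2.43, 2.32 and 3.24 in βUCP2Tg and 2.72, 3.27, 3.32 and 3.63 in WT, a log2 fold change of -0.61 (-1.18 to -0.04, adjusted p = 0.176), with the same 2 arrays crossing. Without both arrays the differences were -2.26 for *Bnip3* and -0.98 for *Bnip3l*. Of the other partner genes named here, values are given only for those called in that fit. They were 1.18 for *Mtfp1*, 0.86 for *Apool* and -0.69 for *Trak1*. In that fit 2 partner genes were called higher and 8 lower by at least 1 of their probes. Over all probes the shares called were 6.73% higher and 9.25% lower. These 2 arrays were picked for lying toward the other group in hypoxia genes, so that wider differences in genes that follow the list are fixed in part by the choice and are given as a description. The median of the 11 mitophagy receptors and regulators was 0.03.

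Of 6 genes of mitochondrial transport along microtubules, 5 were below 0 and the median was -0.21, with *Trak1*, an adaptor between mitochondria and motors, at -0.47 (adjusted p = 0.128) and *Armcx3* at -0.30 (adjusted p = 0.211). Among 9 genes of mitochondrial content the median was 0.00. The mitochondrial transcription factor gene *Tfam* had 0.32 (-0.00 to 0.65, adjusted p = 0.202) and the channel gene *Vdac3* 0.23 (adjusted p = 0.281).

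**Figure D5:**
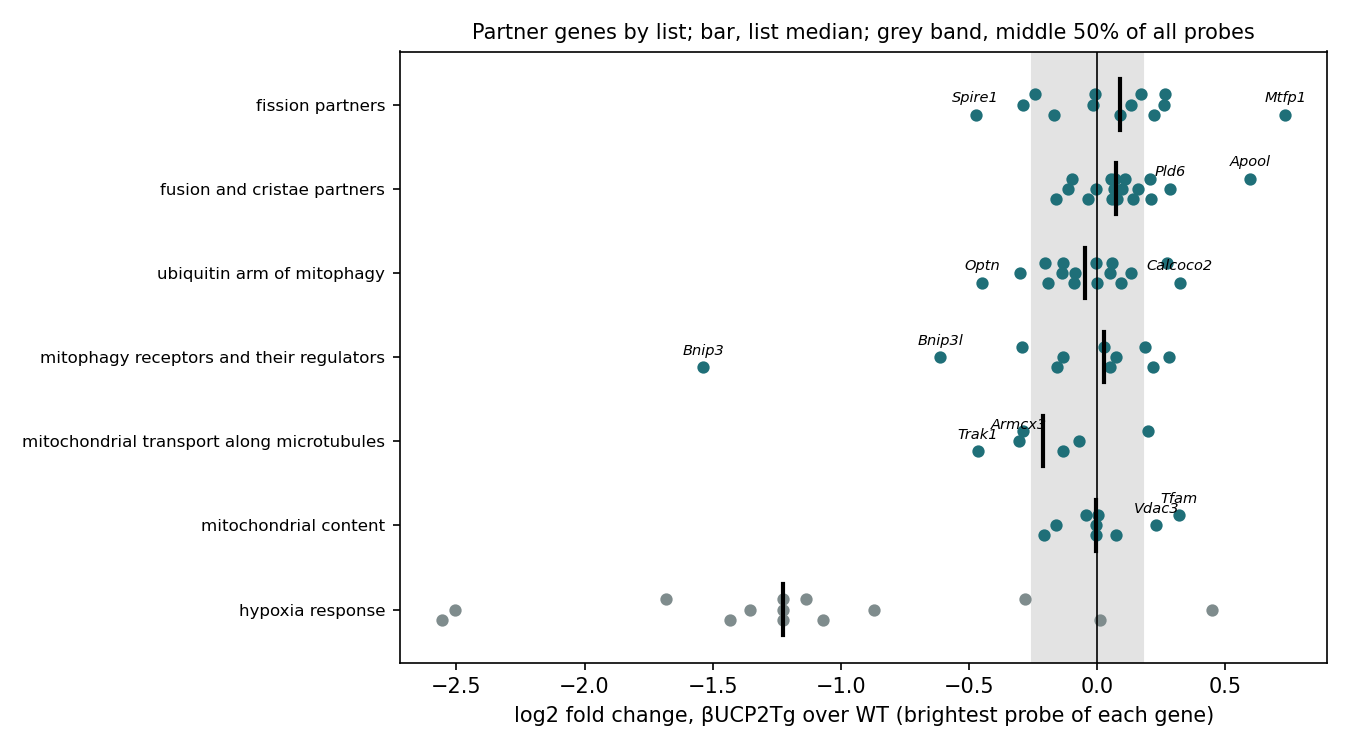
Log2 fold change (x axis, βUCP2Tg over WT) of the brightest probe of each gene in 6 lists of partner genes and in the hypoxia list, with the 2 largest differences of each partner list named. Black bars are list medians and the grey band holds the middle 50% of all tested probes. *Bnip3* (-1.54) and *Bnip3l* (-0.61) lie lowest among the partner genes, and the hypoxia list has a median of -1.22.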

How the data were processed

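The arrays were Agilent SurePrint G3 mouse arrays. The authors scanned them and processed them with Agilent Feature Extraction (10.7.3.1 in the file headers, 9.1 in the submitters' processing notes). The deposited scanner files hold background-subtracted intensity on a linear scale, unscaled between arrays. The authors also deposited GeneSpring values on the log2 scale, which equalled the scaled scanner values plus a constant of 0.506 to 0.551 per array. Their columns of fold changes and p-values were not used.

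Control and outlier spots were left out, and log2 values were taken relative to the 75th percentile of the array. A probe was above background where at least 50% of its kept spots were marked so. Groups were compared with limma 3.58.1 in R 4.3.3 with Benjamini-Hochberg adjustment, which was tested on simulated data. Exact permutation tests were two-sided. A gene was represented by its probe of highest mean. Named were all member genes, the 2 largest differences of each partner list, *Park2*, *Bnip3* and *Bnip3l*. Members and lists were chosen with earlier results of these data known. Of 67 symbols turned into dates, 45 were named through RefSeq. No spot was saturated, and 4 arrays per group limit the precision.

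Alternatives were other background filters, scalings, normexp (offset 50), outlier spots kept, other tests and fold limits, gene means, a replicate block and left-out arrays.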

Additional observations from a re-analysis of the deposited data

Results flagged for a closer look

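In 44 groups of 4 arrays, each holding a member probe in a single genotype, 2 had an array whose distance from its nearest neighbour took up more of the range of the group than Dixon's 95% limit (0.829). Chance alone gives about 1 in 20 groups, or 2.2 of 44. Both cases were βUCP2Tg replicate 4. For *Mfn1* A_55_P2070277 this array read 0.92 where the others read 1.02 to 1.04, a share of 0.838. For *Mfn2* A_55_P2172742 it read -3.82 where the others read -4.53 to -4.45, a share of 0.891.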

How the results depend on the processing

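Of the 25 alternatives, 24 left 0 of the member probes called. The exception was the fit without βUCP2Tg replicate 4 and WT replicate 1, with 1 (*Pink1* A_55_P2935905). The count over all probes (145) was less stable. It was 21 with no background filter, 38 with a filter at 1 array, 237 at all 8 arrays, 82 with the 75th percentile over probes above background on all arrays, 816 with normexp, 379 with an intensity trend, 87 at a 2-fold limit, 26 with the methods' t-test after Benjamini-Hochberg adjustment and 2832 before it. Leaving out 1 array each gave 8 to 3759, with 3759 without WT replicate 1 and 1467 without βUCP2Tg replicate 4, and leaving out both gave 5486. Member probes whose groups did not overlap (1) became 3 with quantile normalization, 2 with that 75th percentile, 4 with normexp, 2 with outlier spots kept, 0 with median scaling, 0 with gene means, 1 to 4 with 1 array left out and 7 without both arrays. *Pink1* A_55_P2935905 was not among them with normexp, the deposited values (where *Mfn1* A_55_P2070277 was the only 1) or median scaling. The share of all probes whose groups did not overlap was computed only for the main fit and the fit without both arrays. For the other settings, these counts therefore cannot be weighed against all probes. Partner genes called by at least 1 of their probes (0) became 1 with normexp, 1 with the trend, 3 with the unadjusted methods' t-test, 0 to 4 with 1 array left out (4 without βUCP2Tg replicate 4, 3 without WT replicate 1) and 10 without both. Over all probes the share called was 4.18% without βUCP2Tg replicate 4 and 10.8% without WT replicate 1. Without both arrays it was 6.73% higher and 9.25% lower. A partner gene was counted when any of its probes was called. These counts therefore do not show that partner genes were called more often than probes in general. The cause of the differences between settings was not tested.

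The estimates of 8 genes kept their direction throughout, but not their size. With gene means *Dnm1l* had -0.4467, *Mfn2* 0.0209 and *Opa1* 0.0094, where the brightest probes had -0.1517, 0.1526 and 0.0495. *Fis1* went from 0.0934 to 0.1707 with quantile normalization. *Mff* had a log2 fold change of -8e-04 with normexp and -0.0153 to 0.0612 with 1 array left out. *Phb2* had -0.1777 with gene means, which take in A_55_P2737054, and -0.0129 to 0.1767 with 1 array left out. *Pink1* ranged from 0.39 to 0.60 over 22 alternatives, with an adjusted p of 0.0312 at its lowest.

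Replicate numbers did not pair the samples. Residuals of same-numbered arrays correlated at 0.437, -0.0466, -0.00864 and -0.241, not every array correlated best with its own number, and with the replicate block 14 probes were called, none of them a member or partner gene. With 4 arrays a group, an adjusted p above the limit does not show that a transcript did not differ, and the intervals give what remains possible.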
